A study of Mus musculus with 24 samples.

Results

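The comparison described here is the kidney transcriptome of PolgD257A mice after B-IRI surgery against that of PolgD257A mice after sham surgery, taken across all genes. Its members were the libraries whose labels give the genotype PolgD257A and the treatment B-IRI or sham: 6 of each, 12 of the 24 libraries of the series. The other 12 libraries came from Polg+/+ kidneys, 6 after B-IRI and 6 after sham, and are used to ask where the PolgD257A response differed; they also enter the filter on low values and the shared estimate of the spread. IRI stands for ischemia reperfusion injury, per the design text of the series; the letter B is not explained in the labels. All groups were bulk RNA of whole kidney, and the design text names the Polg+/+ and PolgD257A mice as littermates. The sources used here state no zygosity, sex, age or time between surgery and collection.

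Polg encodes the catalytic subunit of the polymerase that copies mitochondrial DNA. The D257A allele removes its proofreading exonuclease, so that cells carrying it accumulate mitochondrial DNA mutations over life. Because the allele is present from conception and in every tissue, a B-IRI PolgD257A kidney differs from a B-IRI Polg+/+ kidney in more than its response to surgery. In ischemia reperfusion the blood supply is stopped and then restored; the proximal tubule, which depends on oxidative metabolism and has little capacity for glycolysis, is the segment that suffers most. Surviving tubule cells lose their transporters, switch on injury genes such as Havcr1 and re-enter the cell cycle to replace lost cells.

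Polg itself was near the same level in both groups, at 997, 1032 and 1134 normalised counts (lowest, median and highest of 6 libraries) after sham and 1091, 1123 and 1232 after B-IRI. The groups overlapped and the difference was 0.12 ± 0.04 on the log2 scale (SE, adjusted p = 0.012, limma). A point mutation leaves the transcript in place, so this level does not check the genotype label.

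Library totals, recovered as whole reads, were 20843184 to 25858504 in the sham group and 18669806 to 26341004 in the B-IRI group. Replicates correlated across genes at 0.986 or more within the sham group and at 0.984 or more within the B-IRI group (Pearson, log2 scale), and the first principal component of the 12 PolgD257A libraries held 67.1% of the variance. A few libraries stood apart. Sham replicate 3 lay far from the other 5 sham libraries at 358 of 17430 genes (2.05%) and sham replicate 6 at 284 (1.63%), against 75 to 199 for the other sham libraries. Both held transcripts of fat cells: Cfd, the adipocyte protease adipsin, was at 755 and 1192 against 3.17 to 85.4 in the other sham libraries, Adipoq at 86.6 and 198 against 0 to 9.49, and Plin1 at 113 and 122 against 0 to 11.6. Adipoq and Plin1 were chosen after their values were seen. Sham replicate 3 was also low in thin limb and thick ascending limb genes. Of the B-IRI libraries, replicate 2 lay apart at 315 genes (1.81%) and the others at 82 to 192. Results that rest on these libraries are given below with and without them.

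Of 17430 genes tested, 10534 passed an adjusted p of 0.05 (60.4%), 5260 higher (30.2%) and 5274 lower (30.3%) after B-IRI. Changes of at least 2-fold were found in 1021 higher genes (5.86%) and 1148 lower genes (6.59%). The 6 B-IRI libraries lay wholly above the 6 sham libraries for 3269 genes (18.8%) and wholly below them for 3043 genes (17.5%). Large rises were more frequent than large falls: 111 genes rose and 49 fell by at least 3 on the log2 scale, and 47 rose and 7 fell by at least 4. The median log2 change over all genes was -0.0011, and the counts of each gene list below are to be read against these shares. The scaling of the counts centres the bulk of genes, so neither this median nor the balance of calls can show a change in total RNA. Since tissue was measured in bulk, fewer cells of a type and less RNA per cell cannot be told apart. Lists of genes are described by counts and medians, with no test of the list. Where a list is said below to have no gene higher or none lower after B-IRI, an unadjusted limma p of 0.05, edgeR and DESeq2 also gave 0.

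All 25 genes of the injured tubule list passed as higher after B-IRI (median 2.28), and for 23 of them the groups did not overlap. Havcr1, which encodes the kidney injury molecule KIM-1 on the surface of damaged proximal tubule cells (chr11:46735080-46779578, GRCm38), was at 143, 171 and 198 normalised counts after sham and at 25923, 33755 and 36062 after B-IRI. Every B-IRI library exceeded every sham library by more than the whole sham range, a rise of 7.54 ± 0.24 on the log2 scale (adjusted p = 1.1e-17). Krt20, a keratin that is scarce in healthy tubule (chr11:99428403-99438150), went from 5.85, 15.9 and 25.3 to 2297, 3101 and 5594, or 7.82 ± 0.37. Lcn2, the iron-siderophore carrier NGAL (chr2:32384633-32388252), went from 60.5, 83.1 and 96.2 to 4486, 6722 and 12373, or 6.39 ± 0.33. These are 186-, 225- and 83.9-fold changes of the normalised count + 1. Havcr1 reads made up 0.000741% of all reads after sham and 0.158% after B-IRI (mean of 6; exact two-sided permutation test, p = 0.002165, the smallest that 6 against 6 allows; adjusted p = 0.00346 over 8 shares).

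The markers of intact nephron fell. Egf, the epidermal growth factor precursor made by the thick ascending limb and distal convoluted tubule (chr3:129677565-129755316), was at 32254, 38627 and 40578 after sham and at 1378, 4292 and 6080 after B-IRI, a change of -3.45 ± 0.25 on the log2 scale (adjusted p = 6.5e-12). Slc7a13, the cystine transporter subunit AGT1 of the proximal S3 segment (chr4:19818725-19842218), was at 22821, 24889 and 26836 and then at 1169, 2098 and 3631, a change of -3.50 ± 0.18. No B-IRI library reached the sham range of either gene. The B-IRI kidneys still differed among themselves: their highest Egf value was 4.41 times the lowest, against 1.26 times in the sham group. Egf overlaps genes on the opposite strand, as do 55 of the 156 genes named here in all, and without a record of how strand was handled, their counts may include reads from the partner.

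**Figure D1:**
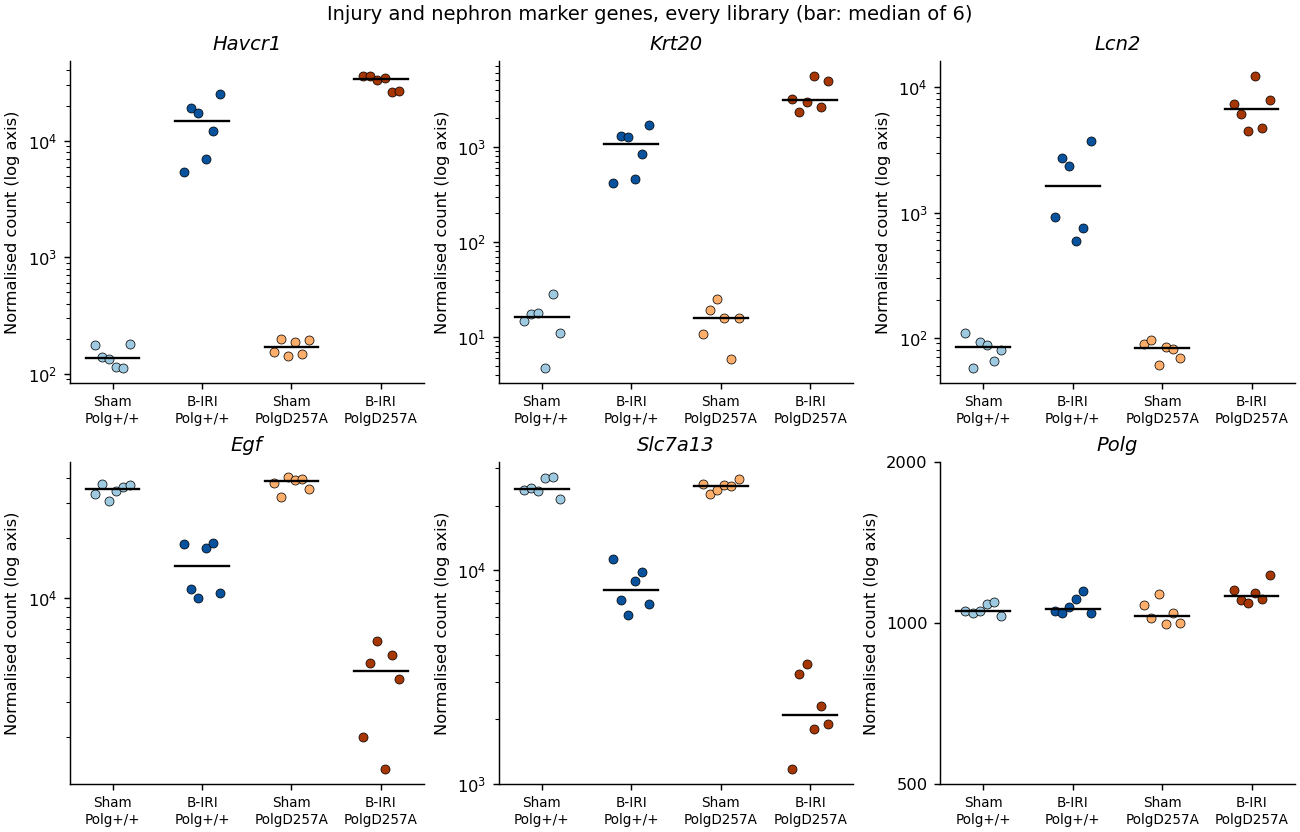
Normalised counts of the 5 markers and of Polg in every library, on log axes; each point is 1 library, bars are medians of 6, and the 4 groups are sham and B-IRI kidneys of both genotypes. The 6 B-IRI PolgD257A points of Havcr1 lie between 25923 and 36062 and those of Egf between 1378 and 6080, in both cases clear of the sham PolgD257A points, while Polg stays between 997 and 1232.

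The promoters of these markers are shown because each gene changed by a factor of more than 10. Havcr1, Krt20 and Lcn2 rose, and Egf and Slc7a13 fell. The promoters run from 250 bases before to 50 bases after the transcription start in RefSeq on GRCm38.p6, read 5′ to 3′ on the gene's strand. Of the 3 listed starts of Havcr1, start 3 is printed, chosen because it was the only 1 of them with a motif match. Its stretch begins at 46750918, downstream of that of start 1, which begins at 46739973. The first listed start of Havcr1, which the shares across all genes use, held none. Of the 2 listed starts of Egf, start 1 is printed. Slc7a13 is named only. Capitals mark a match to the AP-1 motif.
Havcr1, start 3, chr11:46750918-46751217, plus strand: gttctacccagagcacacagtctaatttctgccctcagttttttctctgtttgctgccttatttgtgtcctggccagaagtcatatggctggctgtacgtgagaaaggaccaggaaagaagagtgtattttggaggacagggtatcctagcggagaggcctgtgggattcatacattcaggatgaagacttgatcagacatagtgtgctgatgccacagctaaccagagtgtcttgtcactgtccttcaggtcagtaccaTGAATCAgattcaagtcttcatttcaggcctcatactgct
Krt20, chr11:99438104-99438403, minus strand: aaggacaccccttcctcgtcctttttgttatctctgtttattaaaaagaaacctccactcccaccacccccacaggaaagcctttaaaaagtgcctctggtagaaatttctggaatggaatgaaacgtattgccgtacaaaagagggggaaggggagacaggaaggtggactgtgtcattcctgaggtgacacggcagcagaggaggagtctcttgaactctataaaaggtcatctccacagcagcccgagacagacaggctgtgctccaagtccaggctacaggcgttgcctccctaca
Lcn2, chr2:32387690-32387989, minus strand: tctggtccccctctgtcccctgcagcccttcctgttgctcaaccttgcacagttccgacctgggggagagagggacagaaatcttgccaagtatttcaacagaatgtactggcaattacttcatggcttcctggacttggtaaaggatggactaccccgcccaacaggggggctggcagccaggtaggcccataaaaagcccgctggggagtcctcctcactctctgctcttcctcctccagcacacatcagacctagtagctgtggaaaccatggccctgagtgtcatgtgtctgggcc
Egf, start 1, chr3:129755273-129755572, minus strand: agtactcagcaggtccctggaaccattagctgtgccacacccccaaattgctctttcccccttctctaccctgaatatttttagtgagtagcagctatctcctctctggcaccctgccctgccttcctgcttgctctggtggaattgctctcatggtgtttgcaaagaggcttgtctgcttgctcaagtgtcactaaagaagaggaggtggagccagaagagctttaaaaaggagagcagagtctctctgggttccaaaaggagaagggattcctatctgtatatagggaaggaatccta
The 7 motifs searched on both strands were AP-1 (TGANTCA), NF-kB (GGGANTTTC), STAT (TTCNNNGAA), ATF4 (TGATGNAA), E2F (TTTGGCGC), HNF4 (CAAAGTCCA) and HNF1 (GTTAATNAT). Among the 7 starts of Havcr1, Krt20, Lcn2 and Egf the only match was TGAATCA in start 3 of Havcr1, beginning at base 11 after the start. That match lies in transcribed sequence and overlaps an ATG, so it may be coding sequence rather than a promoter site.

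Across all genes, 719 of the 1021 that rose and 750 of the 1148 that fell by at least 2-fold had a promoter in the table, as did 11858 of 17424 tested symbols; the first listed start of each gene was searched. The AP-1 letters stood in 10.6% of promoters of risen genes, 7.47% of those of fallen genes and 5.41% of all. The NF-kB letters stood in 2.78%, 1.07% and 0.987%, and the ATF4 letters in 3.76%, 2.67% and 2.27%. For HNF1, a factor of the differentiated tubule, the shares were 0.834%, 2.80% and 0.649%, and for HNF4 0.556%, 1.20% and 0.439%. STAT letters were spread more evenly, at 7.51%, 7.33% and 7.03%. E2F letters stood in 0.974%, 0.533% and 0.928%. Some shares rest on few promoters: E2F on 7 risen and 4 fallen genes, HNF4 on 4 and 9, and HNF1 on 6 and 21. These shares are a description without a test; the 3 sets also differed in base composition, with median GC contents of 59.3%, 55.0% and 60.3%.

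Among the steepest rises of other genes with a mean of at least 100 normalised counts were Fgb and Fgg, which encode fibrinogen chains, liver products that injured tubule also makes. Fgb rose from 19.0, 27.7 and 34.3 to 471, 2029 and 2599, and Fgg from 126, 147 and 163 to 2378, 7516 and 9369. In both, B-IRI replicate 3 was the low library, yet it was still above every sham library. Timp1, an inhibitor of matrix metalloproteinases, rose by 5.78 ± 0.33 on the log2 scale to a median of 612, and Adamts4, an aggrecan-cleaving protease, by 4.80 ± 0.27 to a median of 299. Flnc, an actin crosslinker of muscle, rose by 5.09 ± 0.34, and Serpina10, a coagulation inhibitor, by 4.84 ± 0.31. Serpina10 was at 2003 in B-IRI replicate 2 and at 634 to 942 in the other 5. Each of these genes was without overlap between the groups.

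Among the steepest falls, Inmt, a methyltransferase for indoleamines, went from 21769, 23130 and 25880 to 1529, 2157 and 2697, a change of -3.48 ± 0.12 on the log2 scale (adjusted p = 2.7e-17). Mep1b, the meprin beta protease of the brush border, went from 4698, 6111 and 6477 to 324, 673 and 1548. Akr1c14, an aldo-keto reductase, changed by -3.02 ± 0.16, Pde6a, a cyclic GMP phosphodiesterase subunit, by -3.87 ± 0.21, and C8a, a complement component, by -3.02 ± 0.24, in each case without overlap. Kcnt1, a sodium-activated potassium channel, fell from a median of 558 to 45.7. Cfd also met the rule for large falls, at -3.14 ± 1.21 (adjusted p = 0.027), but its values followed sham replicates 3 and 6. Without replicate 3 the change was -2.44, without replicate 6 it was -2.31, and without both it was -1.22; none of these passed the threshold.

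Some of the kidney's most abundant transcripts changed as well. Spp1, the secreted phosphoprotein osteopontin, went from 13785, 14173 and 14604 to 150024, 232350 and 327633, a 16.1-fold rise, and Clu, the chaperone clusterin, rose 5.65-fold to a median of 40048. Cytoplasmic actin, Actg1, rose 2.18-fold. Lpl, lipoprotein lipase, fell 5.23-fold, and Miox, the first enzyme of inositol breakdown, 4.62-fold. The 10 most abundant genes of each library together held 15.0% of its reads after sham and 12.5% after B-IRI, and the 100 most abundant held 30.2% and 25.5% (exact permutation p = 0.002165 for each, adjusted p = 0.00346).

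Every nephron segment list held genes that fell, with different medians. Along the proximal tubule, which reabsorbs most of the filtered load, 8 of 12 tested S1 genes fell, 10 of 11 S2 genes and 13 of 14 S3 genes, with median log2 changes of -0.71, -1.40 and -1.89. None rose in S1 or S3. In S1, the phosphate transporter Slc34a1 went from 128549, 138797 and 167257 to 36636, 43023 and 54551, and the endocytic receptor Lrp2 fell 2.08-fold. In S2, the organic anion transporter Slc22a8 fell 3.30-fold, whereas Slc13a1, the sodium-sulfate cotransporter, rose from 5939, 6845 and 7300 to 8327, 14129 and 20403 with no overlap (1.01 ± 0.15, adjusted p = 1.2e-06). In S3, the kynurenine aminotransferase Aadat fell 5.70-fold and the lactate transporter Slc5a8 fell 4.55-fold.

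Beyond the proximal tubule most segment genes were lower as well. Of 20 thick ascending limb genes, 15 fell and 1 rose (median -0.68). Wfdc15b fell from 1845, 3523 and 4122 to 343, 707 and 1456, and Tmem207 from 243, 513 and 603 to 25.7, 76.1 and 161. The gene that rose was Cldn14, a claudin that reduces calcium reabsorption in this segment; it was at 0 to 2.28 normalised counts after sham and at 10.9, 43.5 and 124 after B-IRI, and passed the filter on low values only through the injured libraries. In the distal convoluted tubule, where salt uptake is regulated, 12 of 15 genes fell and 1 rose. Pvalb, the calcium buffer parvalbumin, fell from 528, 611 and 767 to 26.6, 63.6 and 306, Wnk4, a kinase that controls the sodium chloride cotransporter, fell 1.58-fold and Kl, the ageing-related hormone coreceptor klotho, fell 2.43-fold. The calcium channel Trpv5 rose from 351, 400 and 476 to 374, 653 and 821, with the lowest B-IRI value inside the sham range. Of 14 principal cell genes 7 fell and none rose, among them the sodium channel subunit Scnn1a (1.55-fold). Of 16 intercalated cell genes 12 fell and none rose, among them the proton pump subunit Atp6v1b1 (1.92-fold) and the chloride-bicarbonate exchanger Slc26a4, pendrin (1.55-fold).

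The thin limb list was the least settled, with 4 of 8 genes lower and 2 higher (median -0.43). Aqp1, the water channel of proximal tubule and descending limb, fell from 17891, 21555 and 23131 to 7744, 10912 and 14733, with no overlap. Fst and Bst1 passed as higher (0.68 ± 0.26 and 0.49 ± 0.20), but sham replicate 3 was low for both, at 56.8 for Fst against 161 to 225 in the other sham libraries. Without it the changes were 0.40 and 0.30 and neither passed. The transcription factors that maintain tubule identity fell by small amounts, 14 of 16 lower at a median of -0.49. Esrra, the estrogen-related receptor that drives genes of oxidative metabolism, fell from 4295, 4594 and 5024 to 2640, 3120 and 3383. Pax8, a factor of kidney development, was the 1 that rose, from 1012, 1282 and 1408 to 1559, 1713 and 1902.

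**Figure D2:**
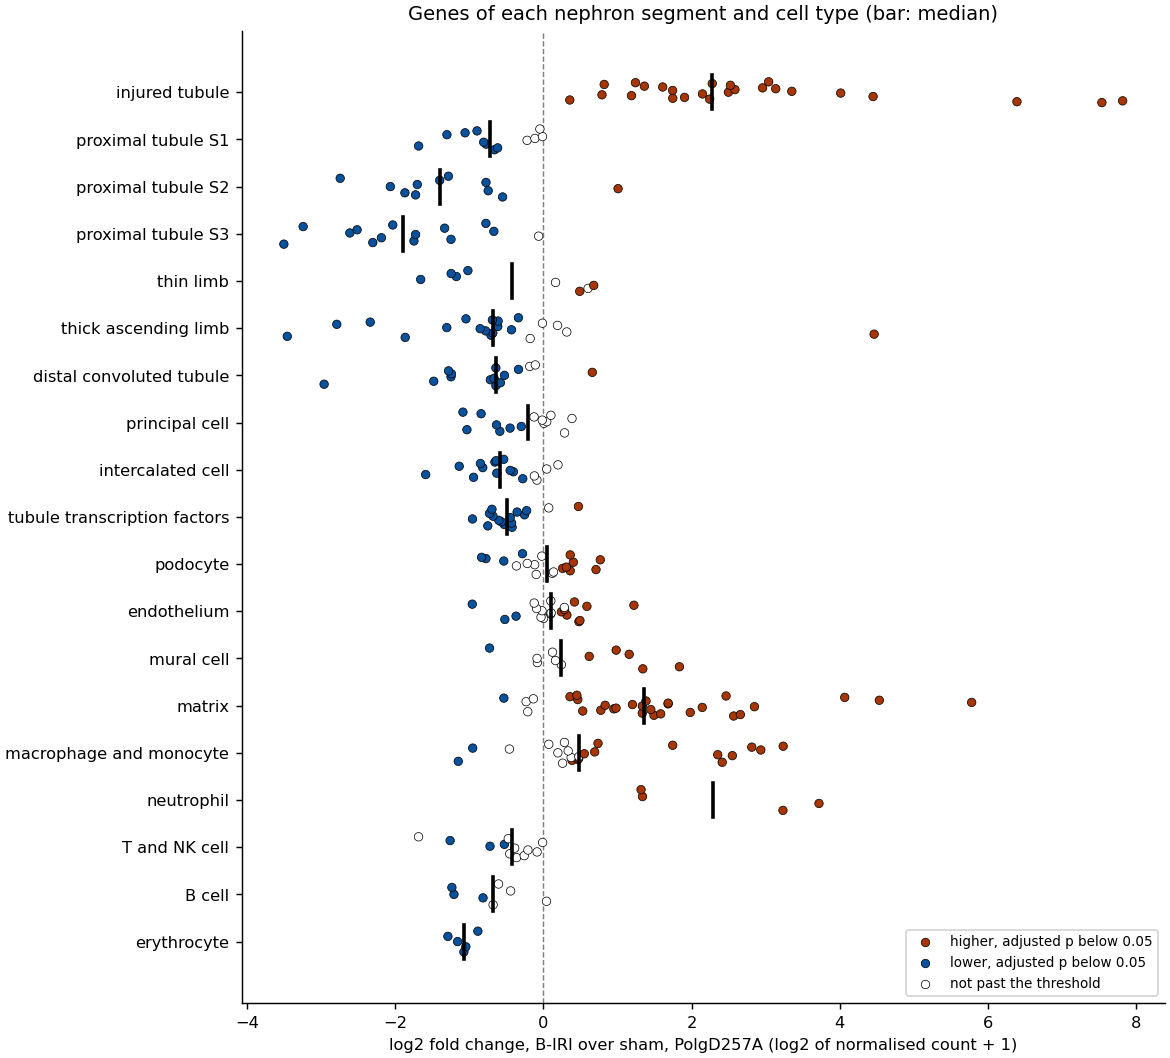
Log2 fold change after B-IRI in PolgD257A kidneys for every tested gene of 19 nephron segment and cell type lists; each point is 1 gene, filled where it passed an adjusted p of 0.05, and black bars are list medians. Medians fall from -0.71 in S1 to -1.89 in S3 and lie at 2.28 for the injured tubule and 1.36 for the matrix genes.

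Genes of the glomerulus and vessels did not move as blocks. Podocytes, the filtering cells of the glomerulus, had 7 of 18 genes higher and 4 lower (median 0.05). Col4a3 and Col4a4, which form the collagen of the glomerular basement membrane, fell 1.71- and 1.78-fold, while Synpo, an actin-binding protein of podocyte foot processes, rose 1.64-fold. Of 20 endothelial genes 8 were higher and 3 lower: Plat, tissue plasminogen activator, rose from a median of 852 to 1951, with no overlap, and Igfbp3, a binding protein for insulin-like growth factors, fell 1.94-fold. Among 11 genes of mural cells, the pericytes and smooth muscle around vessels, 5 were higher and 1 lower. The mean log2 level of the mural list, minus the sham mean, was -0.07 to 0.11 after sham and 0.38 to 0.72 after B-IRI. The same levels of the podocyte and endothelial lists overlapped between the groups. Acta2, smooth muscle actin, rose from 364, 467 and 564 to 1047, 1747 and 2295 and the receptor Pdgfrb rose 2.54-fold, whereas the integrin Itga8 fell 1.65-fold with overlapping groups.

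Matrix genes rose nearly as a block, with 26 of 30 higher and 1 lower at a median of 1.36 (25 and 1 of 29 without Mmp7, which passed the filter only through injured libraries). Col4a1 and Col4a2, which are transcribed from a shared promoter and form the common basement membrane collagen, rose 3.00- and 2.52-fold. The gene that fell was the proteoglycan Dcn, from 533, 709 and 888 to 382, 444 and 635. The collagen family as a whole, 33 tested genes, was split at 16 higher and 9 lower, and its steepest losses were Col6a6 (from a median of 90.3 to 8.23) and Col19a1 (from 50.8 to 3.49).

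Immune cell markers changed unevenly. Of 23 macrophage and monocyte genes 13 were higher and 2 lower (12 and 2 of 22 without Arg1, which passed the filter only through injured libraries). The summed level of the list, which abundant genes dominate, overlapped between the groups, at 5052 to 5753 after sham and 5120 to 6946 after B-IRI. Its mean log2 level, minus the sham mean and with Arg1 included, did not overlap, at -0.14 to 0.12 after sham and 0.62 to 1.21 after B-IRI. Cd68, a lysosomal protein of phagocytes, rose from 51.7, 81.2 and 95.5 to 331, 412 and 480, and Cd14, a receptor for bacterial lipopolysaccharide, rose 5.86-fold. Csf1r, the growth factor receptor that defines the lineage, fell from 1206, 1347 and 1413 to 473, 589 and 723, and Mertk, a receptor for the uptake of dying cells, fell 1.93-fold. Of 13 neutrophil genes 4 passed the filter, S100a8 only through the injured libraries, and the other 3 were all higher (median 1.34). S100a8 had medians of 5.64 and 57.7 and S100a9 of 4.60 and 82.1. The list summed to 30.6 to 66.6 counts after sham and 97.9 to 615 after B-IRI. T and NK cell genes (3 of 12 lower) and B cell genes (3 of 7 lower, with Ighm, the heavy chain of immunoglobulin M, from a median of 109 to 43.7) were at low levels throughout. Their counts rested on single libraries: 1 T and NK cell gene passed without B-IRI replicate 3, and 1 B cell gene without sham replicate 5 or without B-IRI replicate 6. All 5 erythrocyte genes were lower, and the list summed to 3081 to 16077 counts after sham and 1722 to 3632 after B-IRI; the groups overlapped for all 5, Hbb-bs, a beta globin, among them. The part of these cells in the changes of other genes was not tested.

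Signalling molecules of the inflammatory response rose in the same kidneys. Of 20 cytokine and chemokine genes that passed the filter, 19 were higher and 1 lower; 6 of them passed it only through injured libraries, and among the other 14 the counts were 13 and 1 at a median of 1.18. Cxcl1, which attracts neutrophils, rose from 13.6, 18.7 and 34.9 to 441, 539 and 927. Lif, a cytokine of the interleukin-6 family, rose from 10.6, 15.1 and 17.3 to 154, 401 and 478, Cxcl2 was at 0 to 2.16 after sham and 63.9 to 120 after B-IRI, and Csf1, the ligand of Csf1r, rose 4.12-fold. Il18 was the 1 lower gene, at 45.5, 46.4 and 50.5 after sham and 26.2, 34.5 and 47.0 after B-IRI (adjusted p = 0.039), a call lost under 13 of 23 alternatives. Of 16 acute-phase and fibrinogen genes 13 rose and 1 fell (12 and 1 of 15, median 2.29, without Saa1, which passed the filter only through injured libraries). Complement C3 rose 12.3-fold, ceruloplasmin, Cp, from 610, 692 and 813 to 3096, 3333 and 4161, and the transducing factor Stat3 2.69-fold, while complement factor B, Cfb, fell from 795, 857 and 877 to 254, 337 and 421. Interferon response genes did not share in this, with none of 19 higher and 2 lower; Irf7, a master factor of the type I response, changed by -0.45 ± 0.16 with overlapping groups. Of this list 4 genes were lower without B-IRI replicate 2 and 1 without B-IRI replicate 3, 4 or 5.

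Stress programmes were raised to different degrees. Of 16 immediate early genes, which respond to signals without new protein synthesis, 15 rose (median 1.74; 13 of 14 without Fosb and Fosl1, which passed the filter only through injured libraries). Klf6 rose 3.41-fold, and the AP-1 subunit Fosl1 was at 0 to 1.95 after sham and 72.7, 130 and 211 after B-IRI. In the integrated stress response, which the factor ATF4 runs when translation or amino acid supply is disturbed, 21 of 25 genes rose and 3 fell. Its cytokine Gdf15 went from 125, 181 and 257 to 1431, 1591 and 1852 and its factor Atf3 rose 10.7-fold. The 3 that fell were Shmt2, the mitochondrial serine hydroxymethyltransferase (1.64-fold), Cth, which makes cysteine (1.54-fold), and the lipoprotein receptor Vldlr (1.13-fold). Among 15 heat shock genes 12 rose and 3 fell. The small heat shock proteins Hspb1 and Cryab rose 6.72- and 2.83-fold, while the 3 lower genes were Dnaja1, a helper of Hsp70, and the mitochondrial chaperonin pair Hspe1 and Hspd1, which changed by -0.28 ± 0.09 and -0.15 ± 0.06. For Hspd1 the direction turned to 0.23 under quantile normalization. Of 17 targets of NRF2, the factor for oxidative stress, 14 rose and 2 fell: Srxn1, which repairs oxidised peroxiredoxins, rose from 1344, 1440 and 1530 to 4314, 7713 and 8583, Nqo1, a quinone reductase, rose 3.52-fold, and the malic enzyme Me1 and Osgin1 fell. Of 19 p53 targets 12 rose, such as the antiproliferative Btg2 (2.51-fold), and 2 fell, among them Sesn1 (1.46-fold).

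Genes for copying DNA rose almost without exception, 24 of 26 with none lower and a median of 1.35. Uhrf1, which carries DNA methylation through replication, went from 35.2, 49.2 and 67.4 to 312, 447 and 739. Mcm3, a helicase subunit, went from 80.0, 88.7 and 112 to 389, 535 and 880, and Cdt1, which loads that helicase, rose 3.64-fold. Mitosis genes were less uniform, with 14 of 25 higher and 3 lower (median 0.67). Cdk1, the kinase that starts mitosis, was at 14.1 to 35.9 after sham and at 47.9 to 220 after B-IRI (median 69.2). The lower genes were Cenpe and Nusap1, of the kinetochore and spindle, and Kif20b, a kinesin, which fell from 748, 909 and 1273 to 109, 128 and 189. B-IRI replicate 2 had the highest level of the mitosis list, 1.67 above the sham mean on the log2 scale, against -0.09 to 0.72 in the other B-IRI libraries.

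The series title names nucleotide synthesis, and the enzymes that make nucleotides from small precursors did not move as 1 group. Of 13 genes of de novo purine synthesis 7 rose and 3 fell (median 0.44). Atic, which closes the purine ring, went from 785, 840 and 863 to 1348, 1462 and 1791, while Paics, which acts earlier in the same pathway, fell 1.29-fold, Prps2, a phosphoribosyl pyrophosphate synthetase, fell 1.32-fold and Adssl1, an adenylosuccinate synthase, fell from 205, 226 and 235 to 69.2, 81.5 and 100.4. Of 13 pyrimidine genes 8 rose and 3 fell (median 0.27). Cad, which catalyses the opening steps, went from 274, 290 and 325 to 617, 883 and 1039 and Ctps, CTP synthase, rose 2.87-fold, while Rrm2b, the small subunit of ribonucleotide reductase used outside S phase, fell from 782, 850 and 963 to 441, 470 and 497. In salvage and breakdown 12 of 23 genes rose and 8 fell. Xdh, which makes uric acid, rose from 647, 667 and 844 to 1221, 2081 and 2543 and Upp2, a uridine phosphorylase, fell from 556, 732 and 795 to 110, 132 and 185.

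Enzymes that supply one-carbon units and NAD were mainly lower. Of 22 genes of serine and folate metabolism 16 fell and 3 rose (median -0.49). Sardh, which oxidises sarcosine, went from 11408, 12015 and 13542 to 4392, 4924 and 5205, and Cbs, cystathionine beta-synthase, fell 3.30-fold. The mitochondrial enzymes of the folate cycle split: Mthfd1l, of this list, rose from 64.9, 76.3 and 89.3 to 170, 242 and 284, and Mthfd2, counted with the integrated stress response, from 143, 195 and 249 to 526, 664 and 1126, against the fall of Shmt2 given above. Of 13 NAD synthesis genes 9 fell and 2 rose. Kmo and Haao, on the path from tryptophan to NAD, fell 3.19- and 2.79-fold with no overlap, and the genes that rose were Nmnat3, a mitochondrial NAD synthase (1.40-fold), and Nnmt, which methylates nicotinamide, from 11.9, 21.1 and 29.8 to 33.5, 43.0 and 64.2.

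Amino acid breakdown and the tricarboxylic acid cycle fell, and in amino acid breakdown the fall was close to complete. Of 26 such genes 25 fell, none rose and 25 were without overlap (median -0.93); Ivd, of leucine breakdown, went from 11452, 11891 and 12350 to 4238, 4699 and 4907. Of 22 genes of the tricarboxylic acid cycle and pyruvate entry 20 fell and none rose (median -0.50), such as Idh2, 1.99-fold, and Sdha, 1.52-fold. Of 26 fatty acid oxidation genes 15 fell and 2 rose (median -0.32), and the kidneys differed. The mean log2 level of this list, minus the sham mean, was -0.50, -0.39 and -0.38 in B-IRI replicates 1, 2 and 3. It was -0.13, -0.03 and 0.05 in B-IRI replicates 4, 5 and 6, against -0.11 to 0.15 in the sham libraries. Eci1, an isomerase, was among the genes that rose (1.32-fold). Of 8 gluconeogenesis and fructose genes 6 fell and 1 rose: G6pc, the glucose-releasing phosphatase, fell from 7144, 12542 and 14483 to 1181, 1894 and 2470 and Fbp1 fell 2.96-fold, while the mitochondrial Pck2 rose 1.73-fold. Of 17 glycolysis genes 7 were higher and 4 lower, but 13 were higher under quantile normalization. Hk2, a hexokinase that is low in healthy tubule, went from 13.0, 20.3 and 33.4 to 96.6, 161 and 231 and Pfkm, the muscle form of phosphofructokinase, fell 1.45-fold. All 13 mRNAs of mitochondrial DNA fell (median -0.56), for example mt-Nd4, from 156290, 166157 and 188115 to 96302, 104687 and 105854. Together they held 10.1% of reads after sham and 7.90% after B-IRI, while genes typed as mitochondrial rRNA went from 0.367% to 0.612% (exact permutation p = 0.002165 for both, adjusted p = 0.00346). The rRNA shares barely separated, with a highest sham value of 0.428% and a lowest B-IRI value of 0.429%. B-IRI replicate 3 was the highest, at 0.920%.

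**Figure D3:**
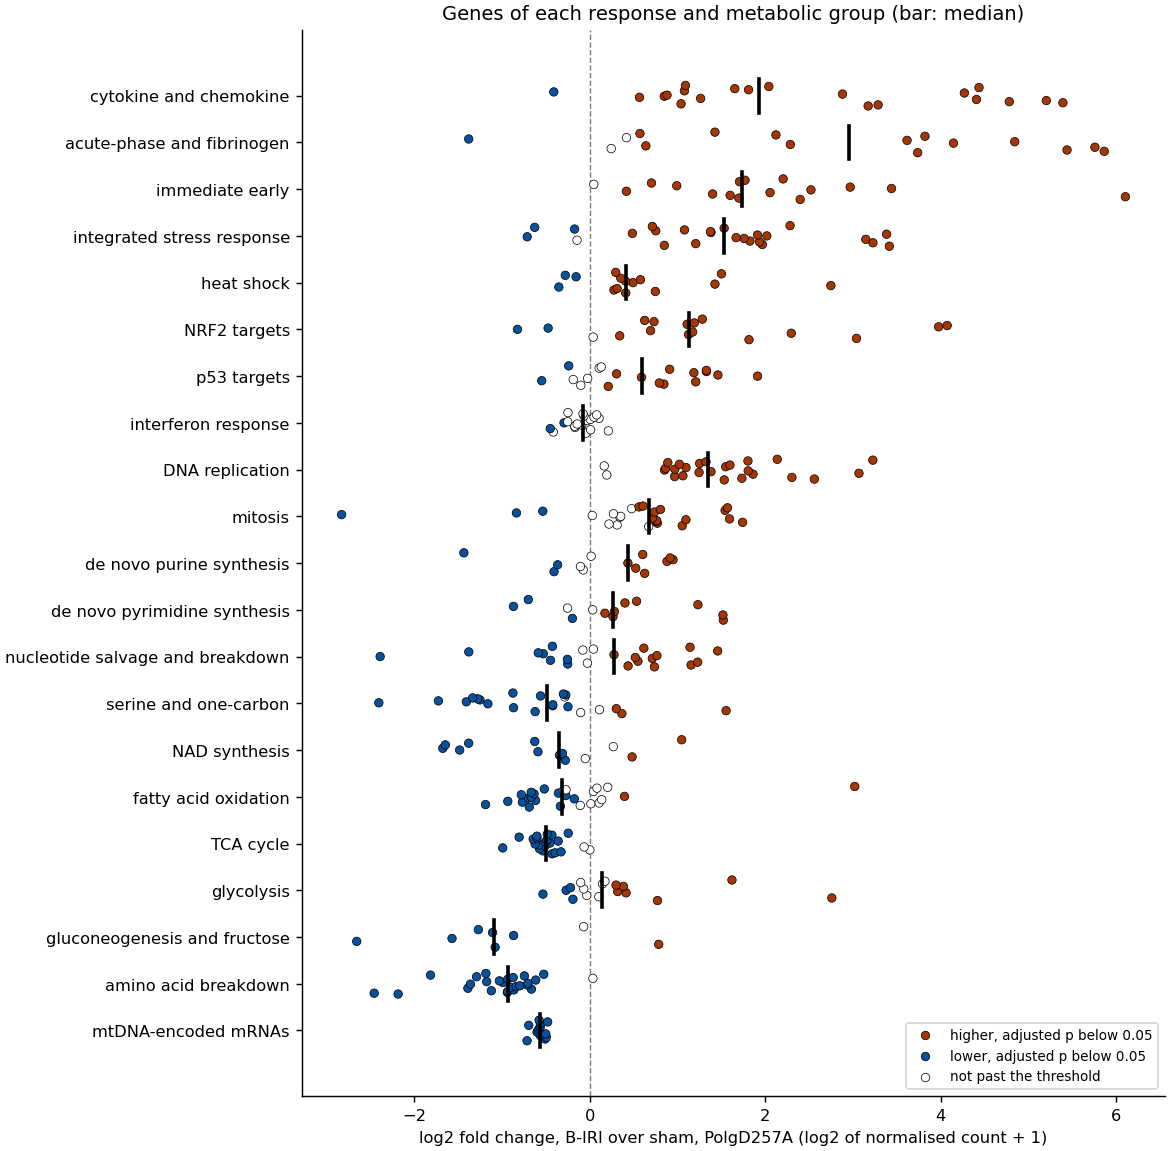
Log2 fold change after B-IRI in PolgD257A kidneys for every tested gene of 21 response and metabolic lists; each point is 1 gene, filled where it passed an adjusted p of 0.05, and black bars are list medians. DNA replication sits at a median of 1.35 and amino acid breakdown at -0.93, and the purine and pyrimidine synthesis lists hold points on both sides of 0.

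Gene families gave a wider view of the same kidneys. Of 306 tested solute carriers 155 fell and 67 rose (66 without Slc26a9, which passed the filter only through injured libraries); the sodium-proton exchanger Slc9a8 fell 4.41-fold and Slc25a24, a mitochondrial carrier of ATP-magnesium, rose 7.22-fold. Of 50 cytochrome P450 genes 26 fell and 14 rose: Cyp4b1 went from 70660, 78120 and 92599 to 19270, 24932 and 28775, and Cyp2a5 from 1834, 2312 and 3337 to 4896, 14828 and 23230. Among 13 keratins 9 rose, such as Krt8 (4.74-fold), and 2 fell (8 and 2 of 12 without Krt4, which passed the filter only through injured libraries). Among 17 claudins, which seal the junctions between tubule cells, 7 rose, such as Cldn4 (3.31-fold), and 5 fell (6 and 5 of 16, median 0.039, without Cldn14). Cytosolic ribosomal proteins rose in 68 of 80 cases and none fell, but by little (median 0.40), Rpl12 being high among them at 2.13-fold; many of these genes have near-identical processed copies, among which reads can be split. Proteasome subunits rose in 34 of 38 cases, such as Psmd11 (1.75-fold), and the single lower gene was Psmb9, a subunit of the immunoproteasome (1.41-fold). All 7 subunits of the cytosolic chaperonin rose, such as Cct3 (1.76-fold). Mitochondrial ribosomal proteins were divided, 15 higher and 23 lower of 77, but 15 were lower without sham replicate 6 and 14 without sham replicates 3 and 6.

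Long noncoding RNAs leaned downward, whereas protein coding genes were nearly balanced. Of 1385 tested, 112 rose and 581 fell (8.09% and 42.0%; median -0.34), against 4688 and 4361 of 14204 protein coding genes. Falls also outnumbered rises in the 406 noncoding genes that overlap no other gene (31 higher, 200 lower) and in the 220 with a mean of at least 100 counts (33 higher, 136 lower), whereas 3223 protein coding genes with a mean below 100 were even (804 higher, 780 lower). The share of all reads in long noncoding RNA did not pass a test, at 0.862% after sham and 0.841% after B-IRI (exact permutation p = 0.303, n = 6 in each group). The abundant Malat1 had medians of 34920 and 37780 and Neat1 of 24790 and 26330, with overlapping groups; both were chosen after their values were seen. By the rule for named genes, the unnamed noncoding transcripts with large changes included AI506816, which rose from 165, 232 and 268 to 946, 1299 and 1462, Gm4208, which fell from 118, 215 and 282 to 10.7, 17.5 and 27.1, and C030005K06Rik, which fell 8.17-fold. Pseudogenes leaned upward, 432 higher and 201 lower of 1453, most clearly the 117 with ribosomal protein names (75 higher, 1 lower), whose reads may belong to the parent genes. The share of reads in protein coding genes was 97.7% and 97.5% (adjusted p = 0.0606, exact permutation test) and that in pseudogenes 0.796% and 0.806% (adjusted p = 0.693), and neither difference passed.

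**Figure D4:**
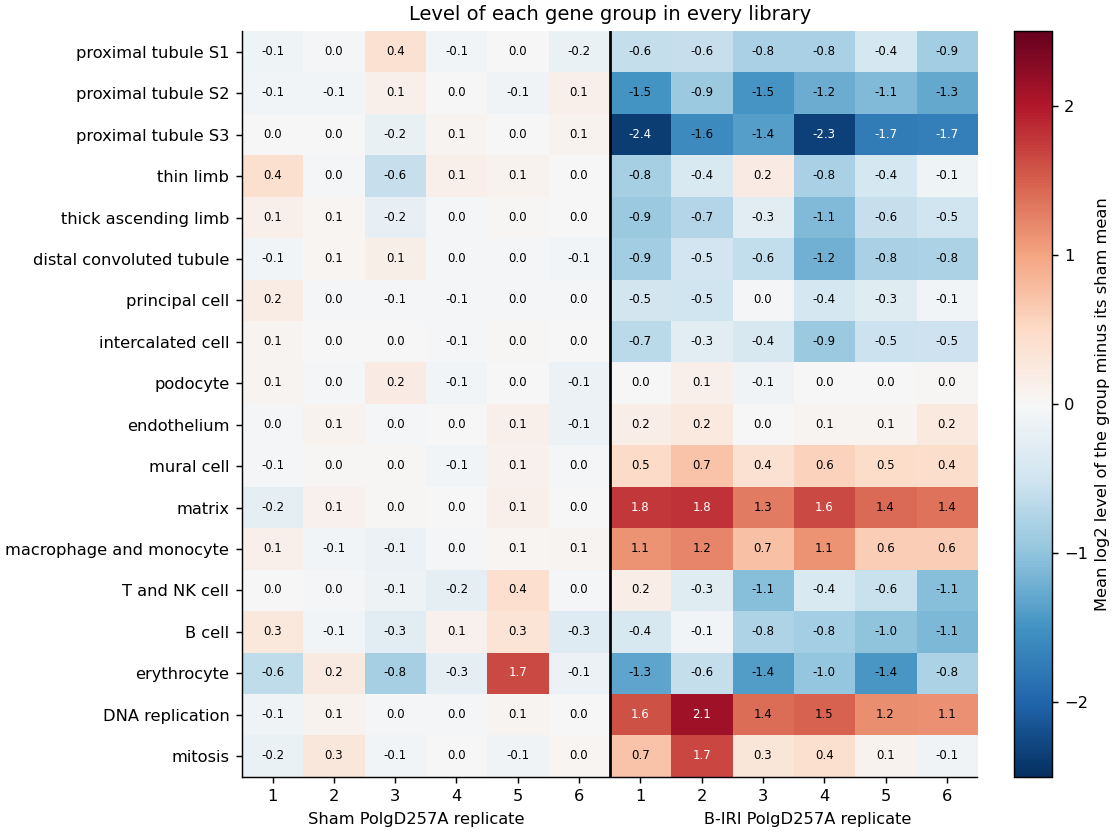
Mean log2 level of each gene list in every PolgD257A library, minus the mean of the 6 sham libraries; each cell is 1 library and the colour scale runs from blue (lower) to red (higher). The B-IRI columns share their colours in most rows, sham replicate 3 is low in the thin limb row (-0.57), and B-IRI replicate 2 is high in the mitosis row (1.67).

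The same surgery in Polg+/+ kidneys moved 7176 of the 17430 genes past the threshold (41.2%), and both sets of libraries are separate, with no library in common. Of 6320 genes that passed in both genotypes, 6309 moved in the same direction, and in 5392 of these (85.5%) the change was larger in PolgD257A. The median absolute log2 change was 0.33 in PolgD257A and 0.21 in Polg+/+, and falls of at least 3 on the log2 scale numbered 49 and 1. Across genes the 2 sets of changes had a Pearson correlation of 0.88 and a Spearman correlation of 0.83, as a description, since genes are not independent. The difference itself, tested as the change in PolgD257A minus the change in Polg+/+, passed for 2780 genes (15.9%), 1198 with a higher value in PolgD257A (6.87%) and 1582 with a lower one (9.08%). Of the 4214 genes called in PolgD257A alone, 926 passed this test. In 2708 of the 2780 the difference lay on the same side as the PolgD257A change, in 1 on the opposite side, and in 71 the PolgD257A change did not pass. The difference contains the PolgD257A change itself, so agreement in side is favoured in advance and is no separate support for a larger response.

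All 5 markers passed that test. Havcr1 rose by 7.54 in PolgD257A and 6.46 in Polg+/+, a difference of 1.07 ± 0.35 (adjusted p = 0.035) that did not pass under 14 of the 35 alternatives, at 0.83 to 1.07. That of Lcn2 was 2.22, that of Krt20 1.94, that of Egf -2.14 and that of Slc7a13 -1.92. Of the steepest genes, Fgb and Adamts4 rose more in PolgD257A by 1.90 and 1.93, and Pvalb and Tmem207 differed by -2.09 and -1.98. By this test 14 of 20 thick ascending limb genes, 10 of 15 of the distal convoluted tubule, 9 of 11 of S2 and 10 of 14 of S3 were lower, against 4 of 12 of S1, 4 of 14 of the principal cell and 3 of 16 of the intercalated cell. Higher by this test were 1 gene of the thick ascending limb, 1 of the distal convoluted tubule and 2 of the intercalated cell. In the thick ascending limb 5 genes fell and 4 rose in Polg+/+ (median -0.089), against 15 and 1 in PolgD257A. Aqp1 did not pass in Polg+/+ (-0.10) and differed by -0.92, Esrra was at 0.00 there and differed by -0.60, and Scnn1a differed by -0.55. Trpv5 rose in PolgD257A only, a difference of 0.71. In the amino acid breakdown list 23 of 26 genes and in the tricarboxylic acid list 19 of 22 were lower by this test. G6pc differed by -1.74, Hk2 by 1.87 and Pfkm by -0.45. Sham levels of both genotypes enter these differences too. List levels below are means of log2 values minus the sham PolgD257A mean. For gluconeogenesis and fructose they were -0.52 to -0.18 in sham Polg+/+ and -0.16 to 0.08 in sham PolgD257A. For the injured tubule the sham groups overlapped, at -0.14 to 0.07 and -0.05 to 0.05. The part of the sham levels in each difference was not tested.

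Other groups rose or fell by amounts whose difference did not pass. None of the 80 cytosolic ribosomal proteins, 20 endothelial or 25 mitosis genes and 1 of 26 replication genes passed the test of the difference (at an unadjusted p of 0.05, 1 ribosomal protein, 5 endothelial and 3 mitosis genes; with edgeR and DESeq2, 0 of each); Uhrf1 rose by 3.23 in PolgD257A and 2.91 in Polg+/+ (difference 0.32, adjusted p = 0.55), and Cxcl1 by 4.78 and 3.96 (difference 0.83, adjusted p = 0.15). A difference that does not pass does not show equal responses.

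Among single genes with a large difference, Rasd1, a Ras-like protein induced by glucocorticoids, went from 40.0, 54.5 and 69.2 to 135, 186 and 467 in PolgD257A and changed by 0.21 in Polg+/+ (difference 1.77, adjusted p = 0.00063). Nccrp1 changed by -2.92 and -0.56 (difference -2.36), with overlapping groups in PolgD257A. Kcng1, a modulating potassium channel subunit, fell from 125, 180 and 231 to 3.55, 10.1 and 22.8 and changed by -2.06 in Polg+/+ (difference -1.95). Nat8f6, of an acetyltransferase family expressed in kidney, fell from 2515, 3005 and 3265 to 302, 529 and 846 and changed by -0.54 in Polg+/+ (difference -1.94). Of the 11 genes called in opposite directions in the 2 genotypes, all passed the test of the difference. Ccn2, the matricellular protein CTGF, rose by 0.45 in PolgD257A and changed by -0.68 in Polg+/+ (difference 1.13), although its own rise did not pass under 6 of 24 alternatives. Rabl6, Pter, Glod5, Nol3 and Fam213b were lower in PolgD257A and higher in Polg+/+ after surgery, with differences of -0.32, -0.66, -0.57, -0.57 and -0.56; all their changes within a genotype were below 0.7 on the log2 scale, and the fall of Fam213b in PolgD257A did not pass under 12 of 24 alternatives.

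**Figure D5:**
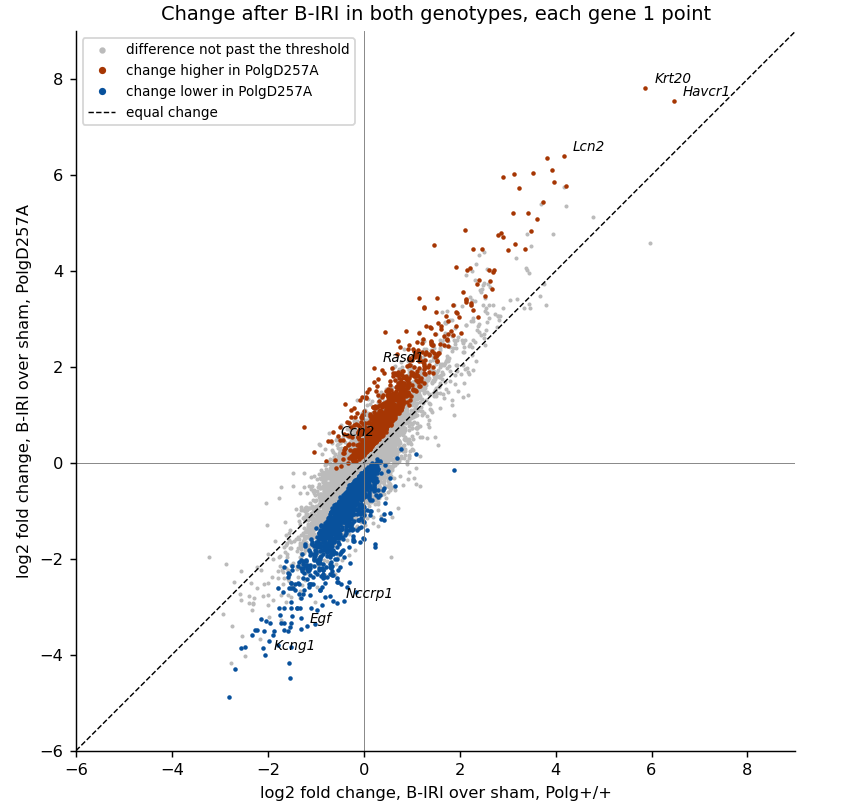
Log2 fold change after B-IRI in Polg+/+ kidneys (horizontal) against that in PolgD257A kidneys (vertical); each point is 1 of 17430 genes, coloured where the difference passed an adjusted p of 0.05, and the dashed line marks equal change. The 1198 red and 1582 blue points lie away from that line, mostly where the PolgD257A change is the larger, and Ccn2 lies where the signs differ.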

How the data were processed

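Bulk kidney RNA (2 µg per library, column purification, NEBNext Ultra II, per the labels' protocols) was sequenced in 24 libraries. Per the submitters' processing notes, FastQC, STAR, SAMtools, featureCounts and DESeq2 were used with GRCm38.p6; their versions and any strand setting are not stated in the labels. The deposited signal values are gene counts divided by size factors, and all of them (100%, tolerance 0.001) gave back whole reads. Columns named Ctrl and Mut were read as Polg+/+ and PolgD257A. Of 55416 gene IDs, 52083 (94.0%) matched GENCODE M21, the source of names and gene coordinates.

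Genes with at least 10 normalised counts in at least 6 libraries (17430) were fitted with limma 3.58.1 (R 4.3.3) on log2(normalised count + 1), group means over all 24 libraries, Benjamini-Hochberg threshold 0.05; folds are on that scale. The fit was run on simulated data in which few genes changed, in equal numbers up and down. That setting does not probe scaling where most genes change. edgeR 4.0.16 and DESeq2 1.42.0 on the recovered reads, other scalings, filters and pseudocounts, a replicate block, and leaving out each library were alternatives. Same-numbered libraries did not deviate together, so the main fit did not pair them, although this check cannot exclude a weak pairing. P-values measure the spread between these libraries, which the labels call biological replicates. Leaving out sham replicates 3 and 6 together was chosen after seeing the data. Named genes were Polg, the 5 markers, the 12 largest rises and falls with a mean of at least 100, the largest among abundant (mean 10000) and noncoding genes, up to 4 members per list with the smallest adjusted p and up to 3 called against its direction, and the largest genotype differences; a few others were named after their values were seen. The comparison and the gene lists were chosen with earlier results of these data known. A few genes that these rules select are not reported here. The authors' table of comparisons was not used.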

Additional observations from a re-analysis of the deposited data

Results flagged for a closer look

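In 328 checks of groups of 6 libraries (the named genes and 8 shares, sham and B-IRI PolgD257A), 29 held a library whose gap to its neighbour exceeded Dixon's 95% limit; chance alone gives about 1 in 20.

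Sham PolgD257A replicate 3 accounted for most of those in the sham group. It was the lowest sham library for Kcnt1 (235.5 against 495 to 646 in the other 5), Aqp1 (17891 against 21340 or more), Corin (46.0 against 107 to 141), Fst (56.8), Bst1 (133 against 283 to 328), Wfdc15b (1845 against 3249 to 4122), Tmem207 (243 against 472 to 603) and Pter (9138). It was the highest for Slc34a1 (167257 against 128549 to 141753), Kl (19072), Clu (9246 against 5793 to 6569) and Il18 (50.5). Several of the low genes mark the thin limb and thick ascending limb, and Slc34a1 marks the proximal S1 segment. Why this library stood apart was not tested.

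The other sham libraries gave single values: Pde6a at 345 in replicate 1, Paics at 5940 in replicate 2, Sesn1 at 388 in replicate 5, Cxcl2 at 0 in replicate 6, the share of reads in long noncoding RNA at 0.931% in replicate 1, and the share in the 100 most abundant genes at 30.8% in replicate 6.

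After B-IRI, replicate 3 was the lowest library for Fgb (471 against 1521 to 2599), Fgg (2378 against 6206 to 9369), C3 (2025 against 3598 to 4566) and Trpv5 (374 against 617 to 821). Replicate 2 was the highest for Serpina10 (2003), Kif20b (189) and Nusap1 (134 against 51.0 to 71.4) and the lowest for Srxn1 (4314 against 6647 to 8583) and mt-Nd4 (96302). Flnc was highest in replicate 4 (1013) and Haao lowest in replicate 1 (1285).

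The response to surgery differed between the genotypes for 26 of the 28 genes whose difference is given in the report (PolgD257A change minus Polg+/+ change, log2, limma interaction). Sham levels of both genotypes enter this difference. It was positive for Havcr1 (1.07), Krt20 (1.94), Lcn2 (2.22), Fgb (1.90), Adamts4 (1.93), Rasd1 (1.77), Ccn2 (1.13), Trpv5 (0.71) and Hk2 (1.87). It was negative for Egf (-2.14), Slc7a13 (-1.92), Pvalb (-2.09), Tmem207 (-1.98), Nccrp1 (-2.36), Kcng1 (-1.95), Nat8f6 (-1.94), Aqp1 (-0.92), Esrra (-0.60), Scnn1a (-0.55), Pfkm (-0.45) and G6pc (-1.74), and for Rabl6 (-0.32), Pter (-0.66), Glod5 (-0.57), Nol3 (-0.57) and Fam213b (-0.56), whose changes had opposite signs in the 2 genotypes.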

How the results depend on the processing

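No scaling moved the median of all genes by more than 0.1. Each of them centres the bulk of genes, so this median cannot show a change in total RNA. The counts of genes higher and lower (5260 and 5274) stayed within 1.5 times under every scaling, filter, pseudocount and tool tried. They were 5379 and 5261 with edgeR, 5261 and 5320 with DESeq2, 5103 and 5092 with the 12 PolgD257A libraries alone, 4946 and 4946 without sham replicates 3 and 6 (chosen after seeing the data), 5048 to 5170 and 5065 to 5206 when 1 library was left out, and 1021 and 1148 with a change of at least 1 on the log2 scale also required. Genes whose response differed between genotypes (1198 and 1582) numbered 857 to 1320 and 1245 to 1746 with 1 library left out and 842 and 1197 with no filter. With the replicate number as a block the PolgD257A counts were 5153 and 5175, and the calls of Bst1, Il18, Hspd1 and Fam213b were lost; same-numbered libraries were uncorrelated (-0.16 to 0.005), and none correlated best with its own number.

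Short lists moved most. Without a filter 7 neutrophil genes were higher and 1 B cell gene was lower. With a filter of 50 counts 0 neutrophil genes, 12 cytokine and 7 mitosis genes were higher and 0 T and NK cell and 1 B cell gene were lower. Under quantile normalization 13 glycolysis genes were higher and 1 B cell gene was lower, and with library weights 5 B cell genes were lower. Lower mitochondrial ribosomal proteins numbered 14 without sham replicates 3 and 6. With 1 library left out, lower genes numbered 1 to 4 for T and NK cells, B cells and the interferon response and 15 to 27 for mitochondrial ribosomal proteins. The difference in share was -0.238 to -0.127 percentage points for protein coding genes and -0.0070 to 0.0197 for pseudogenes, the sign turning without sham replicate 3.

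Of 184 named values, 13 lost their call or direction under some alternative: Cfd (-2.94 to -1.22 there), Fst (0.37 to 0.60), Bst1 (0.28 to 0.49), Il18, Ccn2, Irf7, Fam213b, Hspe1, Vldlr, Hspd1, which reversed to 0.23 under quantile normalization, and the genotype differences of Havcr1, Krt20 and Fgb, the last 2 with edgeR (1.86 and 2.04). The cause was not tested. Genes near the filter of 10 counts are limited by depth.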
